A study of Mus musculus with 4 samples.

Results

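The genes that encode the translation initiation factors (eIF1 to eIF6) and elongation factors (eEF1 and eEF2) were examined in CD37 fl/fl and CD37 -/- leukemia stem cells (LSCs). Members were the protein-coding genes whose mouse symbol began with Eif1 to Eif6, Eef1 or Eef2, and the eIF2 kinases (Eif2ak) and the eIF2 gamma subunit (Eif2s3) were left out. The rule found 53 of the 17104 genes measured. Initiation factors bring the small ribosomal subunit to the cap of an mRNA, scan to the start codon and join the large subunit, and elongation factors then deliver each aminoacyl-tRNA and move the ribosome along. Cap binding by eIF4E and the recycling of eIF2 by eIF2B are the classic control points, which growth factor signaling and stress kinases act on. Many mRNAs of the elongation and eIF3 factors are themselves known as targets of the mTOR pathway through a pyrimidine tract at their start.

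LSCs were YFP+, c-kit+ acute myeloid leukemia cells from the bone marrow of male C57 mice, taken 6 weeks after the secondary transplantation, with 2 independent replicates of each genotype. In both groups, the leukemia had been initiated in lineage-negative bone marrow cells that carried floxed *Cd37* and Rosa26-CreERT2, by retroviral MLL-AF9 linked to YFP. According to the study's methods, tamoxifen was given to the recipients for CD37 -/- and corn oil for CD37 fl/fl, so the deletion, the drug and the activated Cre cannot be told apart. Poly(A) RNA was sequenced, and the comparison asks what the loss of *Cd37*, a tetraspanin gene, did to the transcriptome of these cells.

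Each value was deposited as FPKM, fragments per kilobase of gene relative to library depth, and the whole genomic span of a gene (introns included) served as its length. On that length 99.0% of the values per library corresponded to whole reads, which gave an estimated depth of 15327357 reads for CD37 fl/fl replicate 1, 17327701 for CD37 fl/fl replicate 2, 17740457 for CD37 -/- replicate 1 and 22627491 for CD37 -/- replicate 2. *Cd37* had an FPKM of 56.6 and 46.8 in CD37 fl/fl against 23.2 and 22.9 in CD37 -/- libraries, a log2 fold change of -1.12 (Benjamini-Hochberg adjusted p = 0.104 in limma). Of the c-kit+ myeloid markers, *Elane* was at 1750 to 1884 and *Hoxa9* at 38.8 to 47.2 FPKM in all 4 libraries. *Kit*, a gene with long introns, was at 0.170 and 0.325 against 0.327 and 0.434 FPKM. The 12 markers summed to 2744 and 3840 against 2721 and 2528, most of it from *Elane*, *Ctsg* and *Prtn3*. Other markers of this list did differ. *Mpo* was at 80.3 and 51.6 against 34.4 and 20.8 FPKM (log2 fold change -1.24, unadjusted p = 0.0154 in limma). *Hoxa10* was at 3.79 and 4.30 against 8.01 and 10.4 FPKM (log2 fold change 1.01, unadjusted p = 0.00350 in limma). *Prtn3* and *Ctsg* were lower in CD37 -/- libraries without overlap, and *Kit*, *Meis1* and *Cebpa* were higher without overlap. *Spi1* and *Csf3r* overlapped, and *Cd34* had only 5 to 16 reads per library. Markers of other cells differed between libraries: the summed FPKM of 9 erythroid genes was 61.0 and 5.18 in CD37 fl/fl against 577 and 144 in CD37 -/-, that of 6 late neutrophil genes 1881 and 267 against 3442 and 2478, that of 8 macrophage and dendritic cell genes 252 and 34.1 against 14.4 and 49.7, that of the B cell genes 30.5 and 24.7 against 16.2 and 26.2, and that of the T and NK cell genes 94.7 and 118 against 40.3 and 41.4. The summed FPKM of 6 stroma and endothelium genes stayed at 0.84 to 1.66, and nearly all of the T and NK cell sum was *Nkg7* (94.6 and 118 against 40.1 and 41.3), while *Cd3g* was at 0 in both CD37 fl/fl libraries. The part of these cells in the results was not tested, and in sorted bulk samples a change in the share of a cell type and a change in RNA per cell cannot be told apart.

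Start sequences of 8 members are shown because the known translational control of this family acts through the first bases of the mRNA. RefSeq (GRCm38.p6) listed a start for 40 of the 53 members. Each sequence is read 5′ to 3′ on the strand of the gene and holds 20 bases before and 20 bases from the listed start. Capitals mark the longest run of C and T that began within 10 bases of that start. In *Eef1a1* (chr9:78481705-78481744, minus strand), *Eif3f* (chr7:108934395-108934434, plus strand), *Eif3l* (chr15:79075203-79075242, plus strand) and *Eif2b5* (chr16:20498797-20498836, plus strand), the run was of at least 7 bases.
Eef1a1: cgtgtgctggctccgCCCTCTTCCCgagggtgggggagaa
Eif3f: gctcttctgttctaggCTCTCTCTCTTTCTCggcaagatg
Eif3l: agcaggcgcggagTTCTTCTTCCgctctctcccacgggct
Eif2b5: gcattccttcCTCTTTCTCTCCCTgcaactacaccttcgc
The other 4 are among the members that differed most between the genotypes, *Eif1* (chr11:100319929-100319968, plus strand), *Eif3d* (chr15:77970805-77970844, minus strand), *Eif3a* (chr19:60790674-60790713, minus strand) and *Eif4a2* (chr16:23107448-23107487, plus strand), and the longest run in them was of 2 to 4 bases.
Eif1: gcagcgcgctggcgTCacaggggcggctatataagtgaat
Eif3d: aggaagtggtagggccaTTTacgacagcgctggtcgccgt
Eif3a: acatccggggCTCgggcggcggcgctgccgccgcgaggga
Eif4a2: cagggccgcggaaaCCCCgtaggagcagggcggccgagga
A run of at least 7 bases was found in 8 of the 40 members (20%) and in 18.7% of the 27025 genes of the RefSeq table, on the strand of the gene only. The run of *Eif2b5* was counted from the edge of the window and went on further upstream. In *Eef1a1* and *Eif1* a TATATAA stretch, which in a promoter lies before the start, began 24 and 8 bases into the listed transcript, so the listed start of these genes need not be where most of their RNA begins. Such a stretch followed the start in 2 of the 40 members and in 41 of the 27025 genes (0.152%).

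At a minimum mean FPKM of 1, 51 of the 53 members could be tested. *Eif5a2*, the second eIF5A gene, had 3 to 6 reads per library, and *Eef1akmt3*, a methyltransferase gene of eEF1A, had 3 to 14. All members together took 2.73% and 3.51% of the reads in CD37 fl/fl against 2.91% and 2.76% in CD37 -/- libraries, so the groups overlapped. *Eef1a1* alone held 23.1% to 29.2% of the members' reads. Per kilobase of exon, its mean level over the libraries was the highest, followed by *Eif5a*, *Eef2* and *Eef1b2*. Comparing genes with each other on this scale assumes that the reads came from exons. Whether reads in introns were counted was not tested.

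In limma, 0 of the 51 members differed by genotype at a Benjamini-Hochberg adjusted p under 0.05 over the 6761 genes tested, and the share among all genes was 0.0%. At an unadjusted p under 0.05 there were 8 members (15.7%), against 24.0% of all genes. Of these, 3 were higher in CD37 -/- LSCs (5.88%, against 16.1% of all genes) and 5 were lower (9.80%, against 7.96%). By limma-voom on the recovered reads, 5 members were higher and 8 lower at an unadjusted p under 0.05, against 19.2% and 6.1% of the 12901 genes in that fit, and again 0 members and 0.0% of these genes passed the adjusted p.

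The median of the members lay a little under that of all genes. A log2 fold change below 0 was found for 33 of the 51 members (64.7%) and for 41.2% of all genes tested. Among genes with a mean FPKM of 5 or more, these shares were 65% and 52.9%. The median log2 fold change was -0.16 over the members and 0.11 over all genes. Both CD37 -/- libraries were below both CD37 fl/fl libraries for 22 members (43.1%, against 23.7% of all genes) and above them for 7 members (13.7%, against 38.2%). The sign depended on the scale: after each library was rescaled to the same sum (TPM), the median of the members was 0.18 and that of all genes 0.49. Then 17 members (33.3%) and 20.5% of all genes were below 0. After that rescaling, 8 members were higher and 1 lower at an unadjusted p under 0.05, against 30.5% and 2.88% of all genes. These counts were 3 and 12 after division by the upper quartile, against 10.8% and 13.7% of all genes, and 3 and 18 after limma-voom was scaled to a median of 0, against 10.7% and 12.4%. The distance of the members' median from that of all genes was -0.26 as deposited, -0.30 after TPM rescaling, -0.13 among genes with a mean FPKM of 5 or more and -0.45 in limma-voom. The last distance is from a set that includes genes with a mean FPKM under 1. The limma-voom median was -0.19 over the members and 0.14 over the 6600 genes that reached 1.

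**Figure D1:**
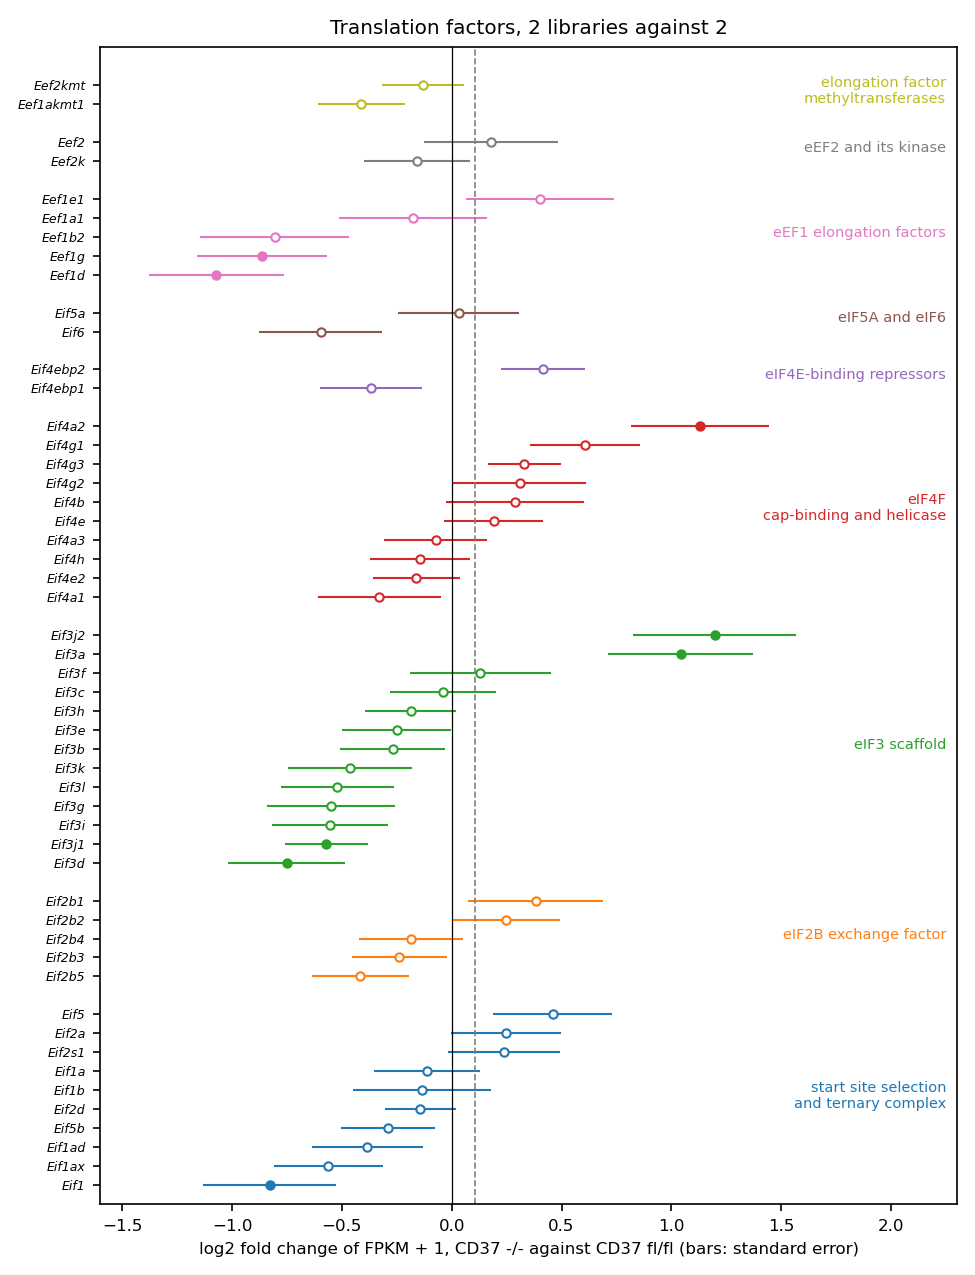
Log2 fold change of FPKM + 1 (horizontal axis) of the 51 members tested, grouped and colored by role, with bars for the standard error from limma. Filled points mark the 8 members at an unadjusted p under 0.05, and the dashed line marks the median of all genes tested, 0.11. Most eIF3 genes and 4 of the 5 eEF1 genes lie left of 0, while *Eif4a2*, *Eif3a* and *Eif3j2* lie farthest to the right.

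The single libraries did not differ equally. Relative to the mean of each gene over the 4 libraries, the median member was at -0.013 and 0.19 (log2) in CD37 fl/fl replicates 1 and 2, and at 0.027 and -0.21 in CD37 -/- replicates 1 and 2. Over all genes these medians were -0.082, -0.011, 0.048 and 0.056. The members were thus farthest apart between CD37 fl/fl replicate 2 and CD37 -/- replicate 2. Without CD37 -/- replicate 2, the median log2 fold change was -0.12 over the members and 0.10 over all genes. These medians were -0.25 and 0.07 without CD37 fl/fl replicate 1 and -0.05 and 0.13 without CD37 fl/fl replicate 2. Without CD37 -/- replicate 1 they were -0.20 and 0.11.

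Among the factors that select the start codon, *Eif1* was lower in CD37 -/- LSCs. eIF1 sits at the ribosomal P site during scanning and rejects poor start codons. The FPKM of *Eif1* (chr11:100319885-100322096, as all gene positions here on GRCm38) was 377 and 367 in CD37 fl/fl (372 ± 7.43, SD, n = 2) against 249 and 175 in CD37 -/- libraries (212 ± 52.3, SD, n = 2). All 4 values were separated by genotype, and the CD37 -/- mean was 57.0% of that in CD37 fl/fl. The log2 fold change was -0.83 (standard error 0.30), and limma gave an unadjusted p of 0.0345 and, adjusted by Benjamini-Hochberg, of 0.178. *Eif1b*, the close paralog, had an FPKM of 37.1 and 30.2 against 38.7 and 23.8, and its groups overlapped. The ratio of *Eif1b* to *Eif1* per kilobase of exon was 0.257 and 0.215 in CD37 fl/fl against 0.406 and 0.355 in CD37 -/- libraries.

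*Eif5*, which encodes the GTPase activator of eIF2, had an FPKM of 33.4 and 44.8 against 49.9 and 57.5. The CD37 -/- values were the higher ones without overlap, and the log2 fold change of 0.46 had an unadjusted p of 0.145 in limma. Of the 10 genes in this group, *Eif1* alone had an unadjusted p under 0.05 as deposited, and 7 genes were below 0. Their median was -0.14, which turned to 0.19 after TPM rescaling. The 5 genes of eIF2B, the exchange factor that reloads eIF2 with GTP, ranged from -0.42 to 0.38 with 0 at an unadjusted p under 0.05. *Eif2b5*, the catalytic subunit, was at 19.1 and 18.6 against 15.1 and 12.8 FPKM without overlap (log2 fold change -0.42, unadjusted p = 0.111 in limma). *Eif2b2* was the most abundant of the 5 per kilobase of exon, with 21.6 and 17.5 against 25.5 and 21.1 FPKM. *Eif2b1* had the highest log2 fold change, with 4.00 and 7.91 against 7.51 and 7.89 FPKM, and there the low value was that of CD37 fl/fl replicate 1.

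eIF3 is the large scaffold that holds the small subunit, the mRNA and the other factors together, and the log2 fold changes of its genes lay on both sides of 0. Of the 13 eIF3 genes in the table, 10 had values below 0 and 3 above 0 as deposited, and their median log2 fold change was -0.27. After TPM rescaling 6 were below 0 and 7 above, where 20.5% of all genes were below 0, and the median was 0.10. *Eif3m* was not analysed here.

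*Eif3a* encodes the largest subunit, around which the core of the complex assembles. *Eif3a* (chr19:60761117-60790658) had an FPKM of 7.60 and 13.4 in CD37 fl/fl (10.5 ± 4.07, SD, n = 2) against 18.6 and 25.7 in CD37 -/- libraries (22.1 ± 4.97, SD, n = 2). The genotypes did not overlap, and the CD37 -/- mean was 211% of that in CD37 fl/fl. The log2 fold change was 1.04 (standard error 0.33), and limma gave an unadjusted p of 0.0204 and, adjusted by Benjamini-Hochberg, of 0.151. *Eif3d*, whose product can bind the cap itself, lay on the other side. *Eif3d* (chr15:77958998-77970813) had an FPKM of 29.9 and 28.8 in CD37 fl/fl (29.3 ± 0.798, SD, n = 2) against 20.5 and 14.1 in CD37 -/- libraries (17.3 ± 4.51, SD, n = 2). The replicates of CD37 fl/fl were close to each other and both CD37 -/- values were below them. The log2 fold change was -0.75 (standard error 0.27), and limma gave an unadjusted p of 0.0317 and, adjusted by Benjamini-Hochberg, of 0.172.

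The core subunits *Eif3b* and *Eif3c* differed little, at 43.4 and 43.5 against 38.4 and 33.5 FPKM and at 36.6 and 41.2 against 39.1 and 36.4 FPKM. Their log2 fold changes were -0.27 and -0.040, and that of *Eif3c* changed sign after TPM rescaling (0.34) and quantile normalization (0.096). Per kilobase of exon, the ratio of *Eif3a* to *Eif3b* was 0.0825 and 0.145 in CD37 fl/fl against 0.229 and 0.360 in CD37 -/- libraries. The ratio of *Eif3d* to *Eif3c* was 0.342 and 0.292 against 0.219 and 0.162. *Eif3f*, the most abundant eIF3 gene per kilobase of exon, had an FPKM of 106 and 93.9 against 137 and 86.7, and its CD37 -/- libraries lay on both sides of the others. *Eif3l* was at 31.1 and 31.9 against 25.2 and 18.6 FPKM (log2 fold change -0.52, unadjusted p = 0.0902 in limma). The span from the least to the most abundant eIF3 gene was 63.9-fold and 33.8-fold in CD37 fl/fl against 34.0-fold and 24.8-fold in CD37 -/- libraries, with CD37 fl/fl replicate 2 and CD37 -/- replicate 1 almost equal.

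**Figure D2:**
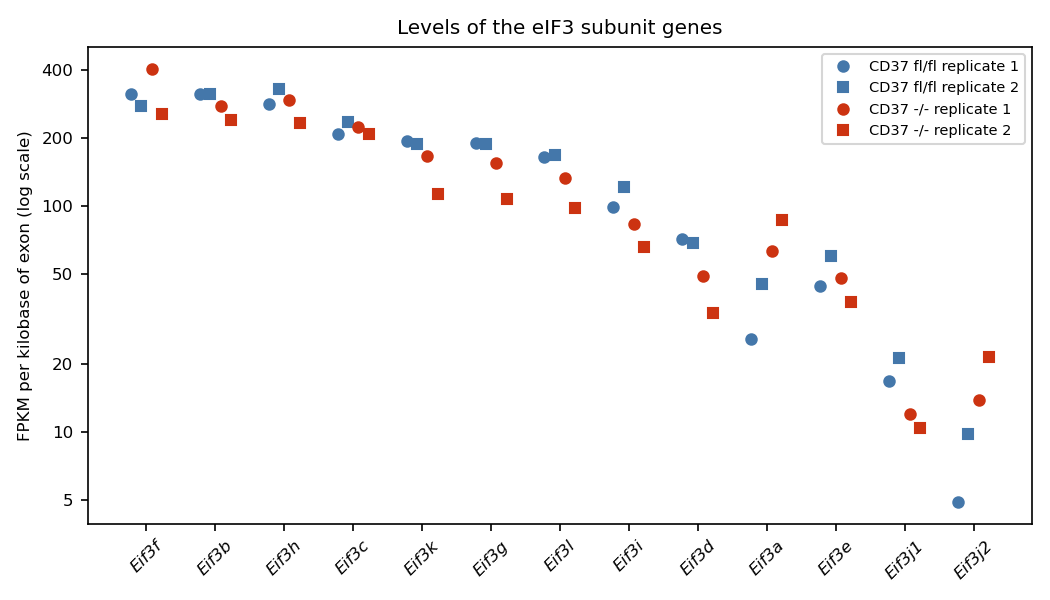
Level of the 13 eIF3 genes in each library, as FPKM recomputed per kilobase of exon (vertical log axis), ordered by mean level. Circles are replicates 1, squares replicates 2, blue CD37 fl/fl and red CD37 -/-. *Eif3a* and *Eif3j2* have both red points above both blue points, and *Eif3d*, *Eif3j1*, *Eif3g*, *Eif3i*, *Eif3k*, *Eif3l* and *Eif3b* have them below.

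*Eif3j1* and *Eif3j2* encode the loosely bound eIF3j subunit, which acts in start site recognition and ribosome recycling. *Eif3j2* had an FPKM of 4.88 and 9.78 in CD37 fl/fl against 13.8 and 21.5 in CD37 -/- libraries (log2 fold change 1.20, standard error 0.37, limma unadjusted p = 0.0190 and Benjamini-Hochberg adjusted p = 0.149). *Eif3j1* had an FPKM of 3.47 and 4.39 in CD37 fl/fl against 2.48 and 2.15 in CD37 -/- libraries (log2 fold change -0.57, standard error 0.19, limma unadjusted p = 0.0247 and Benjamini-Hochberg adjusted p = 0.160). Neither gene overlapped between genotypes, and the ratio of *Eif3j2* to *Eif3j1* was 0.292 and 0.462 against 1.16 and 2.08. The pair is uncertain, because 94.1% of the 30-base stretches of *Eif3j2* are also in *Eif3j1*, and reads could be split between them.

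The eIF4F group binds the cap and unwinds the leader of the mRNA. *Eif4a2*, one of the RNA helicase genes of the complex, had the lowest adjusted p of all members. *Eif4a2* (chr16:23107444-23114136) had an FPKM of 15.8 and 26.0 in CD37 fl/fl (20.9 ± 7.16, SD, n = 2) against 41.4 and 50.2 in CD37 -/- libraries (45.8 ± 6.26, SD, n = 2). Both CD37 -/- values were above both CD37 fl/fl values, and their mean was 219% of the CD37 fl/fl mean. The log2 fold change was 1.13 (standard error 0.31), and limma gave an unadjusted p of 0.0121 and, adjusted by Benjamini-Hochberg, of 0.135.

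*Eif4a1*, the other cytoplasmic helicase gene, had an FPKM of 89.4 and 116 against 87.9 and 74.4. Its log2 fold change was -0.33 (unadjusted p = 0.287 in limma) and 0.048 after TPM rescaling. *Eif4a3*, the helicase of the exon junction complex, was at 25.4 and 27.8 against 27.2 and 23.4 FPKM. The ratio of *Eif4a2* to *Eif4a1* per kilobase of exon was 0.175 and 0.221 in CD37 fl/fl against 0.467 and 0.669 in CD37 -/- libraries. The level of *Eif4a1* is uncertain: a pseudogene, Eif4a-ps4, shares 97.5% of its 30-base stretches with *Eif4a1* and held 18982 to 28758 reads, against 7517 to 11043 at *Eif4a1* itself. With the pseudogene reads added, the log2 fold change of *Eif4a1* was -0.22 and that of *Eif4a2* 1.22 (limma-voom, a setting added once the reads of these pseudogenes had been seen).

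Of the eIF4G scaffold genes, 0 had an unadjusted p under 0.05 in limma. In limma-voom *Eif4g1* (log2 fold change 0.63, unadjusted p = 0.0349) and *Eif4g3* (0.65, unadjusted p = 0.0263) were higher, as were 19.2% of all genes. Neither passed the adjusted p. *Eif4g1* had an FPKM of 17.4 and 19.0 against 24.5 and 32.4, without overlap (log2 fold change 0.61, standard error 0.25, unadjusted p = 0.0532 in limma). *Eif4g3*, a gene with long introns, had an FPKM of 0.773 and 0.890 against 1.20 and 1.40, also without overlap (log2 fold change 0.33, unadjusted p = 0.0948 in limma). The log2(FPKM + 1) scale understates the change of such low values. The CD37 -/- means were 156% (*Eif4g1*) and 157% (*Eif4g3*) of those in CD37 fl/fl. *Eif4g2*, which encodes a relative of eIF4G that lacks the eIF4E-binding site, was at 65.4 and 97.5 against 104 and 94.7 FPKM, with overlap. The ratio of *Eif4g3* to *Eif4g1* per kilobase of exon was 0.251 to 0.284 in all 4 libraries, with no separation by genotype.

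Of the cap-binding protein genes, *Eif4e* overlapped between genotypes, at 2.95 and 4.57 against 4.30 and 4.40 FPKM. *Eif4e2* was slightly lower without overlap, at 6.42 and 6.23 against 6.18 and 4.97 FPKM. Over the 10 genes of the eIF4F group the median log2 fold change was 0.24, and 6 were above 0. All 10 were above 0 after TPM rescaling, where 20.5% of all genes were below 0. In limma-voom scaled to a median of 0, where 50% of all genes were below 0, 5 were above 0. The median of the group was -0.072 when CD37 fl/fl replicate 1 was left out. The log2 fold changes of the repressors that compete with eIF4G for eIF4E lay on opposite sides of 0. *Eif4ebp1* was at 10.002 and 13.5 against 9.22 and 8.34 FPKM (log2 fold change -0.37, unadjusted p = 0.166 in limma). *Eif4ebp2* was at 5.85 and 5.66 against 7.56 and 8.47 FPKM (log2 fold change 0.42, unadjusted p = 0.0743 in limma). Neither overlapped between genotypes, and the ratio of *Eif4ebp2* to *Eif4ebp1* was 0.328 and 0.236 in CD37 fl/fl against 0.460 and 0.570 in CD37 -/- libraries.

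**Figure D3:**
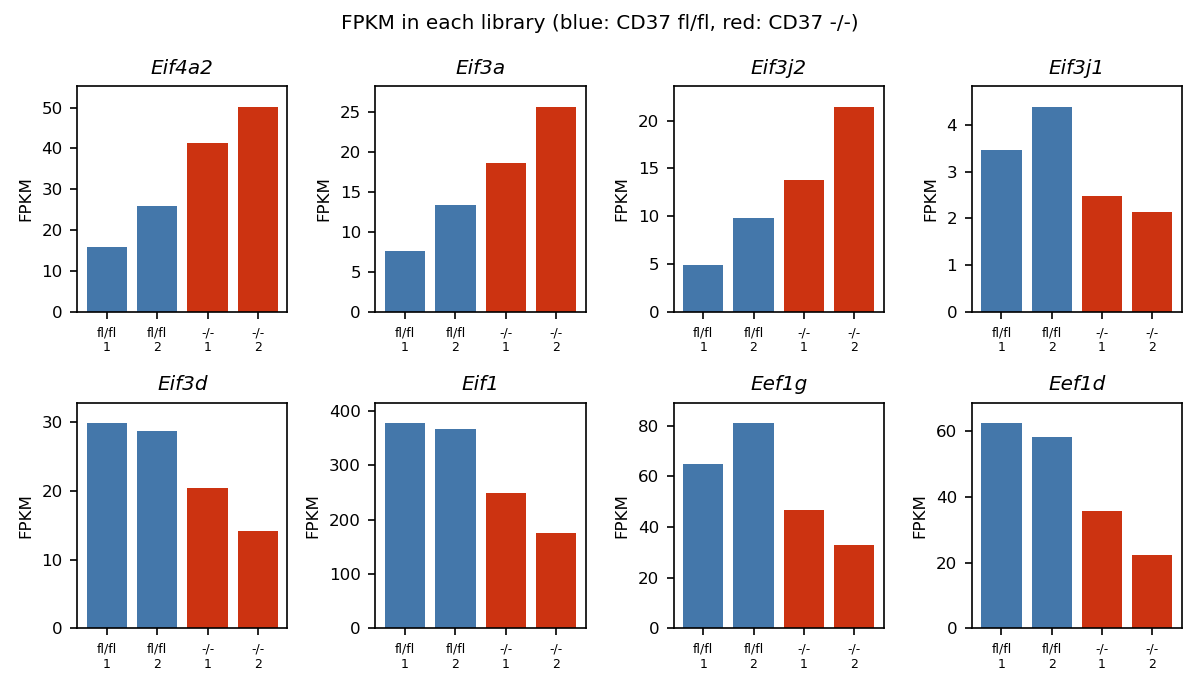
FPKM (vertical axes, starting at 0) of the 8 members at an unadjusted p under 0.05 in each library, blue for CD37 fl/fl and red for CD37 -/- replicates 1 and 2. In each panel the red bars are all above or all below the blue bars, and CD37 -/- replicate 2 has the most extreme value, such as 50.2 for *Eif4a2* and 22.3 for *Eef1d*.

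Among the elongation factors, *Eef1d* and *Eef1g*, genes of the guanine nucleotide exchange complex of eEF1, were lower in CD37 -/- LSCs with limma (both unadjusted p-values under 0.05), and neither passed the adjusted p. eEF1A carries aminoacyl-tRNA to the ribosome, and the eEF1B complex, of *Eef1b2*, *Eef1d* and *Eef1g*, reloads it with GTP. *Eef1d* (chr15:75894205-75909556) had an FPKM of 62.6 and 58.2 in CD37 fl/fl (60.4 ± 3.08, SD, n = 2) against 35.7 and 22.3 in CD37 -/- libraries (29.0 ± 9.50, SD, n = 2). The CD37 -/- libraries were both far below the others, and their mean was 48.0% of that in CD37 fl/fl. The log2 fold change of -1.07 (standard error 0.31) was the lowest of all members, and limma gave an unadjusted p of 0.0136 and, adjusted by Benjamini-Hochberg, of 0.137.

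*Eef1g* (chr19:8967041-8978479) had an FPKM of 64.8 and 81.0 in CD37 fl/fl (72.9 ± 11.5, SD, n = 2) against 46.8 and 33.1 in CD37 -/- libraries (40.0 ± 9.75, SD, n = 2). Its log2 fold change was -0.86 (standard error 0.30), and limma gave an unadjusted p of 0.0277 and, adjusted by Benjamini-Hochberg, of 0.164. *Eef1b2* had an FPKM of 346 and 447 in CD37 fl/fl against 278 and 181 in CD37 -/- libraries (log2 fold change -0.81, standard error 0.34, limma unadjusted p = 0.0556 and Benjamini-Hochberg adjusted p = 0.214). For all 3 genes of the complex the genotypes did not overlap, and all 3 log2 fold changes stayed below 0 under each alternative run. Several of these runs (other filters, other eBayes options and the replicate block in limma) could not change a fold change.

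*Eef1a1* had an FPKM of 595 and 957 against 628 and 711, with overlap (log2 fold change -0.18, unadjusted p = 0.623 in limma). The log2 fold change of *Eef1a1* turned positive under quantile normalization (0.43) and TPM rescaling (0.21). The ratio of *Eef1d* to *Eef1a1* per kilobase of exon was 0.0580 and 0.0335 in CD37 fl/fl against 0.0313 and 0.0173 in CD37 -/- libraries. That of *Eef1g* was 0.112 and 0.0868 against 0.0765 and 0.0477, and that of *Eef1b2* was 0.196 and 0.158 against 0.149 and 0.0857. Each ratio was lower in both CD37 -/- libraries, though for *Eef1b2* and *Eef1d* the gap between CD37 fl/fl replicate 2 and CD37 -/- replicate 1 was small. *Eef1e1*, which encodes a subunit of the multisynthetase complex, was at 2.16 and 5.00 against 5.45 and 4.15 FPKM, with CD37 fl/fl replicate 1 low. *Eef1g* reads are shared with pseudogenes that together held 9186 to 18363 reads, and with these added its log2 fold change was -0.79 (limma-voom, unadjusted p = 0.0124 and Benjamini-Hochberg adjusted p = 0.110).

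**Figure D4:**
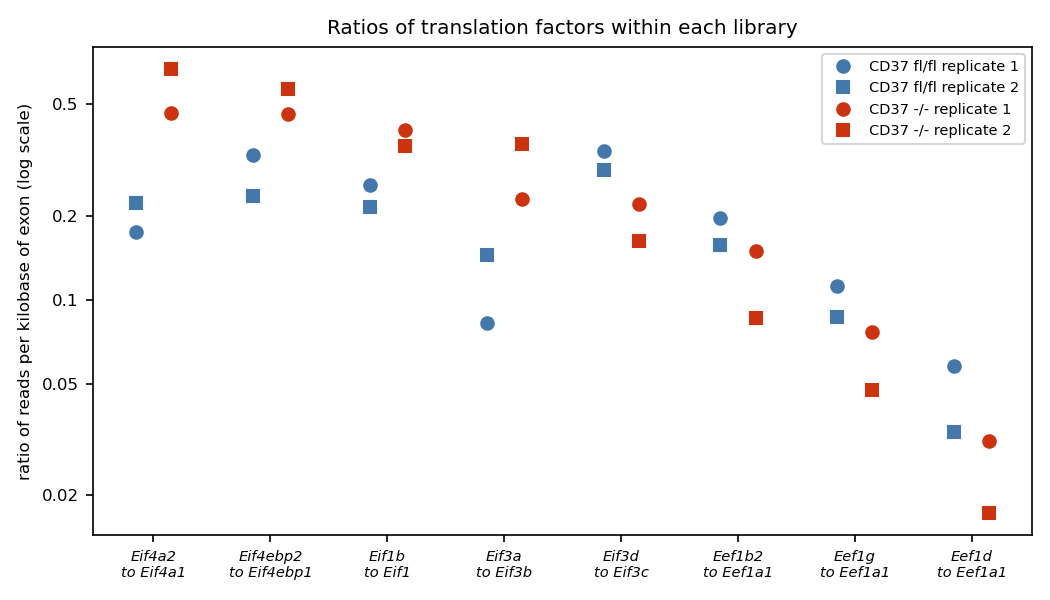
Ratios of 8 pairs of members within each library, from reads per kilobase of exon (vertical log axis), with circles for replicates 1, squares for replicates 2, blue for CD37 fl/fl and red for CD37 -/-. All 8 pairs come from the 11 of the 16 computed ratios without overlap, and no ratio with overlap is drawn. The separation of red and blue points in all 8 thus follows from which pairs are shown. For *Eif4a2* to *Eif4a1* the points are at 0.467 and 0.669 against 0.175 and 0.221.

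Of the 16 ratios computed, 11 had no overlap between genotypes, where of the single genes tested 38.2% were higher and 23.7% lower without overlap. With 2 libraries in each group the exact permutation test cannot give a two-sided p below 0.333, so the ratios are descriptions.

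*Eef2*, which encodes the translocase, was at 396 and 568 against 534 and 539 FPKM (log2 fold change 0.18, unadjusted p = 0.580 in limma). Its inhibitory kinase gene *Eef2k* was at 1.51 and 2.64 against 1.46 and 1.99 FPKM, with a log2 fold change of -0.16. In both genes CD37 fl/fl replicate 2 had the highest value, and the groups overlapped. *Eif5a*, whose product carries hypusine and helps the ribosome through difficult peptide bonds, was at 423 and 491 against 491 and 442 FPKM. *Eif6*, which encodes the factor that keeps the subunits apart, had an FPKM of 54.0 and 46.9 against 39.0 and 27.8, without overlap (log2 fold change -0.60, standard error 0.28, unadjusted p = 0.0781 in limma). *Eef1akmt1*, a lysine methyltransferase gene for eEF1A, was at 1.48 and 2.12 against 1.25 and 0.944 FPKM (log2 fold change -0.41, unadjusted p = 0.0841 in limma).

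Members with long transcripts tended to be higher and those with short transcripts lower in CD37 -/- LSCs, as was the case for all genes. Of the 19 members with transcripts of 1000 to 1999 bases, 17 were below 0 and the median log2 fold change was -0.33. The 1578 coding genes tested in that class had a median of -0.10, and 59.6% of them were below 0. The 19 members of 2000 to 3999 bases had a median of -0.040 against 0.20 over 2440 genes. The 11 members of at least 4000 bases had a median of 0.31 against 0.28 over 1222 genes. Of these members 7 were above 0 and 4 below, where 18.8% of the 1222 genes were below 0. Across genes, which are not independent replicates and share the libraries, the correlation of log2 fold change with transcript length was described by a Spearman's rho of 0.44 over the 51 members and of 0.41 over 5768 coding genes. *Eef1d* lay below, and *Eif3j2* and *Eif4a2* above, the other members of 2000 to 3999 bases. The part of RNA quality in this pattern was not tested. With the RefSeq start sequences, the 8 tested members with a pyrimidine run of at least 7 bases had a median log2 fold change of -0.023 and the 31 without one -0.14. Over the coding genes tested, these medians were 0.14 for 838 genes with a run and 0.11 for 3768 without. The difference was not tested. *Eef2* (longest run of 2 bases) and *Eef1b2* (4 bases) counted as without a run, and *Eef1d* and *Eef1g* had no listed start. A listed start need not be the main start, so this split need not sort the members by the known pyrimidine tract.

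**Figure D5:**
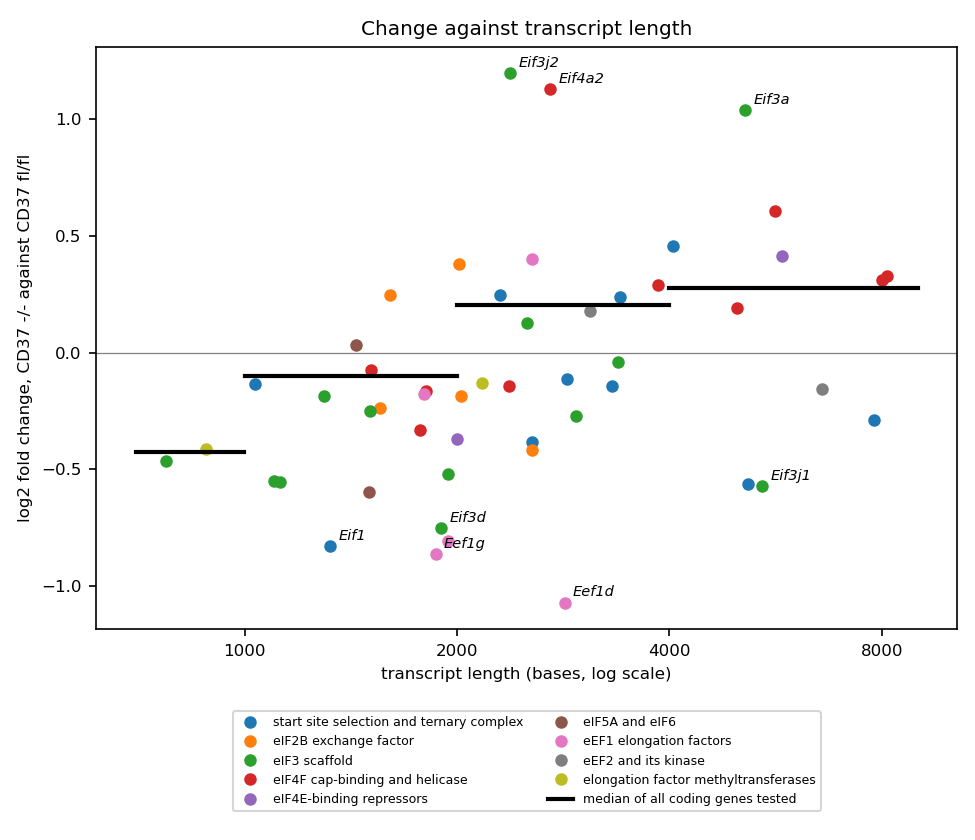
Log2 fold change of FPKM + 1 (vertical axis) of each tested member against its transcript length in bases (horizontal log axis), colored by role. Black bars mark the median of all coding genes tested in each length class, which goes from -0.43 under 1000 bases to 0.28 from 4000 bases on.

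Genes that act on these factors were read beside them, from 8 lists of 65 genes. Of the 44 that were tested, 0 passed a Benjamini-Hochberg adjusted p under 0.05 in limma, and 3 were higher and 4 lower at an unadjusted p under 0.05, against 16.1% and 7.96% of all genes. By limma-voom 61 were tested, with 11 higher and 4 lower, against 19.2% and 6.1% of all genes. *Ppp1r15b*, the constitutive partner of the phosphatase that reverses eIF2 phosphorylation, had an FPKM of 13.1 and 12.8 against 27.0 and 35.3 (log2 fold change 1.19, limma unadjusted p = 0.00303 and Benjamini-Hochberg adjusted p = 0.0941). Its values were close within CD37 fl/fl and well above them in CD37 -/- LSCs. *Eif2ak1* and *Eif2ak2*, kinases of eIF2, were at 1.09 and 1.11 against 1.496 and 1.82 FPKM and at 1.06 and 0.952 against 1.45 and 2.14 FPKM, without overlap and with unadjusted p-values of 0.0930 and 0.0539 in limma. *Eif2ak3* and *Eif2ak4*, under the FPKM filter, were also higher without overlap. Limma-voom gave log2 fold changes of 0.82 for *Eif2ak2* (unadjusted p = 0.0264), 0.98 for *Eif2ak3* (0.0188) and 0.59 for *Eif2ak4* (0.0843). None of these passed the adjusted p, and *Eif2ak1* was not in that fit. The log2 fold changes of the poly(A)-binding protein genes lay on both sides of 0. *Pabpc1*, which links the poly(A) tail to eIF4G, was at 28.4 and 57.8 against 70.1 and 104 FPKM (log2 fold change 1.05, unadjusted p = 0.0456 in limma). *Pabpc4* was at 11.2 and 15.3 against 6.44 and 5.58 FPKM (log2 fold change -1.01, unadjusted p = 0.00561 in limma), and *Pabpn1*, the nuclear form, had a log2 fold change of -0.74 (unadjusted p = 0.0326 in limma). *Rps6kb1*, the S6 kinase gene downstream of mTOR, was at 0.732 and 0.900 against 1.38 and 1.73 FPKM (log2 fold change 0.49, unadjusted p = 0.0313 in limma). *Denr*, which acts in reinitiation and recycling, was at 12.8 and 14.3 against 8.86 and 6.29 FPKM (log2 fold change -0.78, unadjusted p = 0.0183 in limma). *Tufm*, the mitochondrial elongation factor Tu gene, was at 16.9 and 16.9 against 11.7 and 9.86 FPKM (log2 fold change -0.61, unadjusted p = 0.0311 in limma). All of these genes at an unadjusted p under 0.05 were separated by genotype. The lists of termination and recycling (4 genes tested), hypusine and diphthamide synthesis (6) and selenocysteine elongation (3) held 0 genes at an unadjusted p under 0.05 in limma. In limma-voom, which also tested genes of lower FPKM, the termination list had 2 higher (*Gspt1*, log2 fold change 2.29, and *Gspt2*, 2.09) and the selenocysteine list 2 higher (*Secisbp2*, 0.72, and *Secisbp2l*, 1.55), and 0 of these passed the adjusted p.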

How the data were processed

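The authors deposited FPKM values for 17104 genes, not logged, with 1 column per library. The submitters' processing notes name fastp 0.20.1, STAR 2.7.7a, featureCounts 2.0.0, edgeR and the build mm39, and the study names limma for its own comparison. The annotation and the strand setting of the counting are not given in the sources used here. GENCODE M21 (GRCm38, an earlier build) gave gene names, spans and positions, and 17045 identifiers (99.7%) were matched to it. Its spans were used because they gave whole reads (within 0.05 of a whole number, which chance meets for 10.0% of values) for all 53 members. Members had a median span of 3.87 times their exon length. FPKM per kilobase of exon was computed from the recovered reads.

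The 6761 genes that reached a mean FPKM of 1 were compared as log2(FPKM + 1) in limma 3.58.1 (lmFit, then eBayes with its trend option, R 4.3.3, statmod 1.5.0). Adjustment was by Benjamini-Hochberg, and 0.05 was the threshold. This scale understates changes of low values. Each p-value sets the difference between the groups against a variance. That variance comes from the 2 replicates of each group and is moderated toward a trend over all genes tested. The code was tested on simulated data. No label states that a replicate number pairs samples. Figures were drawn with matplotlib 3.10.9, and tables were handled with scipy 1.17.1, numpy 2.4.6 and pandas 2.3.3 under Python 3.11.15. Alternatives were a pseudocount of 0.1, other filters, quantile, upper quartile and TPM scaling, exon length, eBayes without a trend or robust, a replicate block, limma-voom on recovered reads (genes with a mean of at least 10), and each library left out. Pseudogenes were assigned to a member when at least 20% of their 30-base stretches were shared.

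The members and the lists were chosen with earlier results of these data known. The genes named with values are, for each role group of at least 3 members, the most abundant and those with the highest and lowest change, all with an unadjusted p under 0.05 without overlap, and sets of paralogs. *Eef1b2*, *Eef2*, *Eif3b*, *Eif3c*, *Eif3l*, *Eif2ak1*, *Eif2ak2*, *Eif2ak3*, *Eif2ak4*, *Gspt1*, *Gspt2*, *Secisbp2*, *Secisbp2l* and the markers were named after their values were seen. Genes outside the rule were named at an unadjusted p under 0.05 without overlap. Genes of the role lists that have no row in the table, such as *Eif3m*, *Eef1a2*, *Eif4e3* and *Eif4ebp3*, were not analysed here.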

Additional observations from a re-analysis of the deposited data

How the results depend on the processing

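The main limits are 2 libraries per genotype and the scaling. Of 717 comparisons of a named gene with an alternative, 32 changed sign and 3 passed the adjusted threshold. No named gene passed it as deposited, so the rest say nothing of stability at that threshold. The other filters, the other eBayes options and the replicate block in limma leave each log2 fold change as it was. No sign could change in these runs, so the share of changed signs is no measure of stability. The median of all genes was 0.11 as deposited, -0.02 after quantile normalization, 0.49 after TPM rescaling, -0.03 after division by the upper quartile and 0.26 in limma-voom. The cause of these differences was not tested. The number of all genes at an adjusted p under 0.05 went from 0 to 45 with a mean FPKM of at least 5 (fewer genes tested), to 46 with the upper quartile, to 16 with exon length and to 88 with robust eBayes, and stayed at 0 in each leave-one-out fit.

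With the replicate block, this number was 73, and 549 in limma-voom with the block. No label pairs same-numbered libraries, and their deviations from the group means had a correlation of -0.04 over 6761 genes. With 2 libraries per group, this value cannot show whether same-numbered libraries shared a batch. In limma-voom with the block 1 member passed, *Eif4a2* (1.17, adjusted p = 0.0489 with Benjamini-Hochberg adjustment), as did *Cd37* (-1.16) and *Ppp1r15b* (1.25). Over all its alternatives the adjusted p of *Eif4a2* ranged from 0.0489 to 0.407.

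The members higher at an unadjusted p under 0.05 (3 as deposited) were 8 after TPM rescaling, 5 with exon length and 5 in limma-voom, and 0 to 6 with a library left out. Of all genes, 16.1% were higher as deposited, 30.5% after TPM rescaling, 18.5% with exon length and 19.2% in limma-voom. Among the members, this share was lower, at 5.88% as deposited, 15.7% after TPM rescaling and 9.80% in limma-voom. The members lower were 5 as deposited (7.96% of all genes) and 1 after TPM rescaling (2.88%). They were 12 with the upper quartile (13.7%) and 8 without a trend (8.95%). They were 8 in limma-voom (6.1%) and 18 in limma-voom scaled to a median of 0 (12.4%). Without CD37 -/- replicate 2, the 5 members lower as deposited had log2 fold changes of smaller size. These were -0.74 for *Eef1d*, -0.62 for *Eef1g*, -0.58 for *Eif1*, -0.50 for *Eif3d* and -0.50 for *Eif3j1*. The members' median (-0.16) was 0.18 after TPM rescaling, -0.32 with the upper quartile and -0.45 in limma-voom scaled to a median of 0, and -0.25 to -0.05 with a library left out. Its distance from the median of all genes (-0.26) was -0.13 with a mean FPKM of at least 5, -0.16 with no filter, -0.45 in limma-voom, -0.44 with the block, -0.45 when scaled, and -0.33 to -0.18 with a library left out. The limma-voom fits also held genes of lower FPKM.

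Signs changed after TPM rescaling for *Eef1a1* (0.21), *Eef2k* (0.13), *Eif1b* (0.24), *Eif3b* (0.10), *Eif3c* (0.34), *Eif4a1* (0.048), *Eif4a3* (0.30) and *Eif4e2* (0.18), after quantile normalization for *Eef1a1* (0.43) and *Eif3c* (0.096), with the upper quartile for *Eef2* (-0.0039), *Eif3f* (-0.053) and *Eif5a* (-0.15), and in scaled limma-voom for *Eef2* (-0.079), *Eif2b2* (-0.00027), *Eif3f* (-0.13), *Eif4e* (-0.014) and *Eif5a* (-0.23). With a library left out, values crossed 0 for *Eef1e1* (-0.060 to 0.87), *Eef2* (-0.081 to 0.44), *Eif2b1* (-0.035 to 0.80) and *Eif4e* (-0.058 to 0.44) without CD37 fl/fl replicate 1, for *Eef1a1* (-0.52 to 0.17) and *Eef2k* (-0.43 to 0.11) without CD37 fl/fl replicate 2, for *Eif3f* (-0.20 to 0.46) without CD37 -/- replicate 1 and for *Eif4a3* (-0.18 to 0.034) without CD37 -/- replicate 2. They also crossed 0 for *Eif1b* (-0.48 to 0.20) without CD37 fl/fl replicate 1 or CD37 -/- replicate 2, for *Eif3c* (-0.12 to 0.042) without either replicate 2, and for *Eif5a* (-0.076 to 0.14) without either replicate 1.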

Other observations

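Processed pseudogenes that share sequence with a member were in the table for 14 of the 53 members, 32 pseudogenes in all. Relative to the reads of the member itself, the pseudogenes of *Eif4a1* held 248% to 311%, those of *Eef1g* 96.6% to 157%, and those of *Eef1a1* 8.10% to 12.3%. Those of *Eif4e* were at 2.18% and 3.58% in CD37 fl/fl against 10.8% and 13.8% in CD37 -/- libraries, and those of *Eif4a2* at 5.17% and 5.51% against 8.51% and 9.25%.

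Of the 53 members, 12 overlap another gene of the table in position, 11 of them on the opposite strand. *Eif4a2* overlaps *Rfc4*, which had 920 to 1067 reads with no order by genotype, and *Eif3j1* overlaps *Spg11*, for which the reads numbered 169 and 240 for CD37 fl/fl against 414 and 1006 for CD37 -/-. *Eef1d* overlaps *Naprt* on the same strand, with 94 to 370 reads. The libraries mark strand, and whether the counting used it was not tested.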
